A study of Mus musculus with 4 samples.

Results

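The 34 genes described here encode the antioxidant, glutathione and NRF2 systems of the cell. They were chosen as a list of symbols and found by exact match of the symbol, and all 34 were present among the 23990 genes of the expression tables. RNA was sequenced from sorted alveolar type 1 (AT1) cells, the thin cells that form the gas-exchange surface of the lung, to compare AT1 cells that express the airway transcription factor Sox2 with control AT1 cells. The cells came from the lobe edges of littermates of mixed B6 and 129 strain at postnatal day 3 to 4, and the sources used here do not give the marker of the sort. The libraries labelled Sox2 (n = 2) are given the genotype Scnn1a-Cre; Rosa[Sox2/+], and the libraries labelled WT (n = 2) the genotype Scnn1a-Cre; Rosa[mTmG/+]. By these labels, mice of both groups carried Cre recombinase driven from the Scnn1a gene, with a Sox2 transgene at the Rosa locus under the label Sox2 and the membrane reporter mTmG at that locus under the label WT. The level of Sox2, given below, goes against this assignment. Values are FPKM, fragments scaled by transcript length and by the library's total, so levels can be compared per length between genes of a library. Between libraries the scale is not common: median-of-ratios factors on the tested genes were 1.03 and 0.757 under the label Sox2, against 1.27 and 1.01 under the label WT, and results are given with and without this rescaling where it ends a call.

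NRF2, the product of Nfe2l2, is a transcription factor that the redox sensor KEAP1 marks for degradation. Oxidants and electrophiles modify KEAP1, and NRF2 then accumulates, pairs with a small MAF protein and binds antioxidant response elements near genes for glutathione synthesis, thioredoxin recycling and the conjugation of reactive compounds. Alveolar epithelium meets inhaled oxygen directly, and this system is a main part of its known defence.

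Sox2 itself ran against the labels. It stood at 1.41 and 1.99 FPKM in the libraries labelled Sox2, against 302 and 477 FPKM in the libraries labelled WT (log2 difference -7.15, SE 0.34, limma adjusted p = 2.39e-06). All directions below follow the labels, and Sox2 itself points the opposite way. Whether labels or files were exchanged cannot be told apart from the deposited values, and every higher and lower below would turn if they were. Labelled WT replicate 2 stood apart in small RNA genes, which held 50.9% of its summed FPKM, against 14.0%, 5.76% and 19.3% in labelled Sox2 replicates 1 and 2 and labelled WT replicate 1. AT1 markers were present in all libraries, and 7 of 8 were higher in the libraries labelled Sox2, where their levels summed to 5289 and 6247 FPKM, against 1084 and 617 FPKM in those labelled WT. All 6 AT2 markers were also higher there, with sums of 23656 and 16491 FPKM against 5611 and 906 FPKM. All 4 markers of dividing cells were lower, with sums of 33.4 and 14.0 FPKM against 201 and 72.4 FPKM. Of other markers, 2 of 4 ciliated, 2 of 6 endothelial and 1 of 5 red blood cell markers were higher, and 0 of 6 mesenchymal markers passed. At an unadjusted p under 0.05, the higher markers were 2 ciliated, 6 endothelial, 3 red blood cell and 2 mesenchymal. In sorted bulk cells, fewer cells of a type and less RNA per cell cannot be told apart. Xist reached 41.1 FPKM in labelled Sox2 replicate 1, against 0.156 FPKM in labelled Sox2 replicate 2 and 0.0929 and 0.141 FPKM under the label WT, so the libraries labelled Sox2 differ in sex and came from different animals, whereas no label says so for those labelled WT. P-values therefore measure the spread between these libraries, which may be technical.

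Promoter sequence is shown for the genes that passed the test and hold a binding motif of the NRF2 type, and for Gpx2, the gene with the largest difference. Windows of 300 bases, 250 before and 50 after the annotated start of a gene, were taken from RefSeq (GRCm38.p6) and were at hand for 28 of the 34 genes. They were searched on both strands for 2 motifs, the core of the antioxidant response element, TGACNNNGC, and the NF-E2 motif, TGANTCAGC. A match of the second that reads TGAC at its start is a match of the first as well. The core was found in 9 of the 28 genes (32.1%), against 14.0% of all 27025 genes with a window, and the NF-E2 motif in 3 genes (10.7%), against 1.37%. The genes were listed as part of the NRF2 and glutathione systems, so a higher share of such motifs can follow from that choice. Of the 8 genes with a window that were lower in the libraries labelled Sox2, 3 held the core, as did 6 of the 18 that did not pass. The windows below are written 5′ to 3′ along the gene, with motif letters in capitals. Gclm, the modifier subunit of the enzyme that starts glutathione synthesis, lies on the plus strand at chr3:122245307-122245606. Its core is on the opposite strand, with the first capital at base -134. Bases are numbered from the gene's start, negative before it and positive from its first base on, with no base 0. Each position given is that of the first capital as written, also for a motif on the opposite strand. Srxn1, which restores over-oxidised peroxiredoxins, lies on the plus strand at chr2:152105274-152105573, with an NF-E2 motif at base -45 and a core on the opposite strand at base 29. Prdx1, an abundant peroxiredoxin, lies on the plus strand at chr4:116685349-116685648, and its capitals at base -133 match both motifs on the opposite strand. Gpx2 lies on the minus strand at chr12:76795505-76795804, and neither motif is among the letters of its window.
Gclm: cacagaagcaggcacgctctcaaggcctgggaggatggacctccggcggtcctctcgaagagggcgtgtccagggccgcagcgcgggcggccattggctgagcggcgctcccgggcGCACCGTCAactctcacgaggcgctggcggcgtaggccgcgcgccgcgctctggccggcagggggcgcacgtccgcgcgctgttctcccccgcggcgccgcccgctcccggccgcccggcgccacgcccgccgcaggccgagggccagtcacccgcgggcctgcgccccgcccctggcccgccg
Srxn1: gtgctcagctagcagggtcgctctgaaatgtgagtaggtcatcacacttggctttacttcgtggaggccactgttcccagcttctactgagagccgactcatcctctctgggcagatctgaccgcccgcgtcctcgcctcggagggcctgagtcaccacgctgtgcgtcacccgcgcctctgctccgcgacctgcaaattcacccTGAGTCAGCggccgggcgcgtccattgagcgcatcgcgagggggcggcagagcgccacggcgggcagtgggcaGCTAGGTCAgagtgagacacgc
Prdx1: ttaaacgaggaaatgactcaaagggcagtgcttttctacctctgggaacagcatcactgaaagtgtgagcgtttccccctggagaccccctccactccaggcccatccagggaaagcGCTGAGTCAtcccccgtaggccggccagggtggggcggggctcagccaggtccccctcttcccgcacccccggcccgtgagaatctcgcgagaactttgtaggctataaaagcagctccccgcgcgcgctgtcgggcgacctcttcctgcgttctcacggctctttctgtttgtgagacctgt
Gpx2: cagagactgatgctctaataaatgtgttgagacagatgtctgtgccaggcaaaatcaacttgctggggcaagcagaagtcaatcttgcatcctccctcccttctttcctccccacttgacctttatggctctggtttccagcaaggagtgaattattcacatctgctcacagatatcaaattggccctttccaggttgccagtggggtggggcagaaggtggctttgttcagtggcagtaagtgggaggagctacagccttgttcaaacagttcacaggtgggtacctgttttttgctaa

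Among the 33 genes expressed at a mean of at least 1 FPKM, 10 were lower in the libraries labelled Sox2, 1 was higher and 22 did not pass. This compares with 8.11% of all 12040 tested genes called lower and 4.20% called higher (limma, adjusted over all tested genes, threshold 0.05). The lower genes were Gpx2, Ephx1, Gsto1 and Gsta4, with log2 differences from -4.77 to -2.99, and Srxn1, Gsr, Gclm, Txn1, Prdx1 and Mgst3, with log2 differences from -1.28 to -1.10. The higher gene was Gstt1. The median log2 difference was -0.60 over the 33 genes and -0.29 over all tested genes. The groups did not overlap in 23 of the 33 genes (69.7%), against 58.1% of all tested genes. Fewer of the 33 genes passed with any 1 library left out, and fewer of all tested genes without either library labelled Sox2. Without labelled Sox2 replicate 1 the median log2 difference was -0.81 over the 33 genes and -0.48 over all tested genes. Without labelled Sox2 replicate 2 these medians were -0.44 and -0.11. Without labelled WT replicate 1 these medians were -0.57 and -0.16, and without labelled WT replicate 2 they were -0.71 and -0.43. After median-of-ratios rescaling, which moves the median of all genes from -0.29 to 0.00, 3 genes were lower and 1 was higher, where 5.70% of all genes were lower and 8.01% higher, and the median of the 33 genes was -0.32. When genes of any non-zero level were tested, limma called 0 of the 34, of which 11 were lower and 1 higher at an unadjusted p under 0.05.

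**Figure D1:**
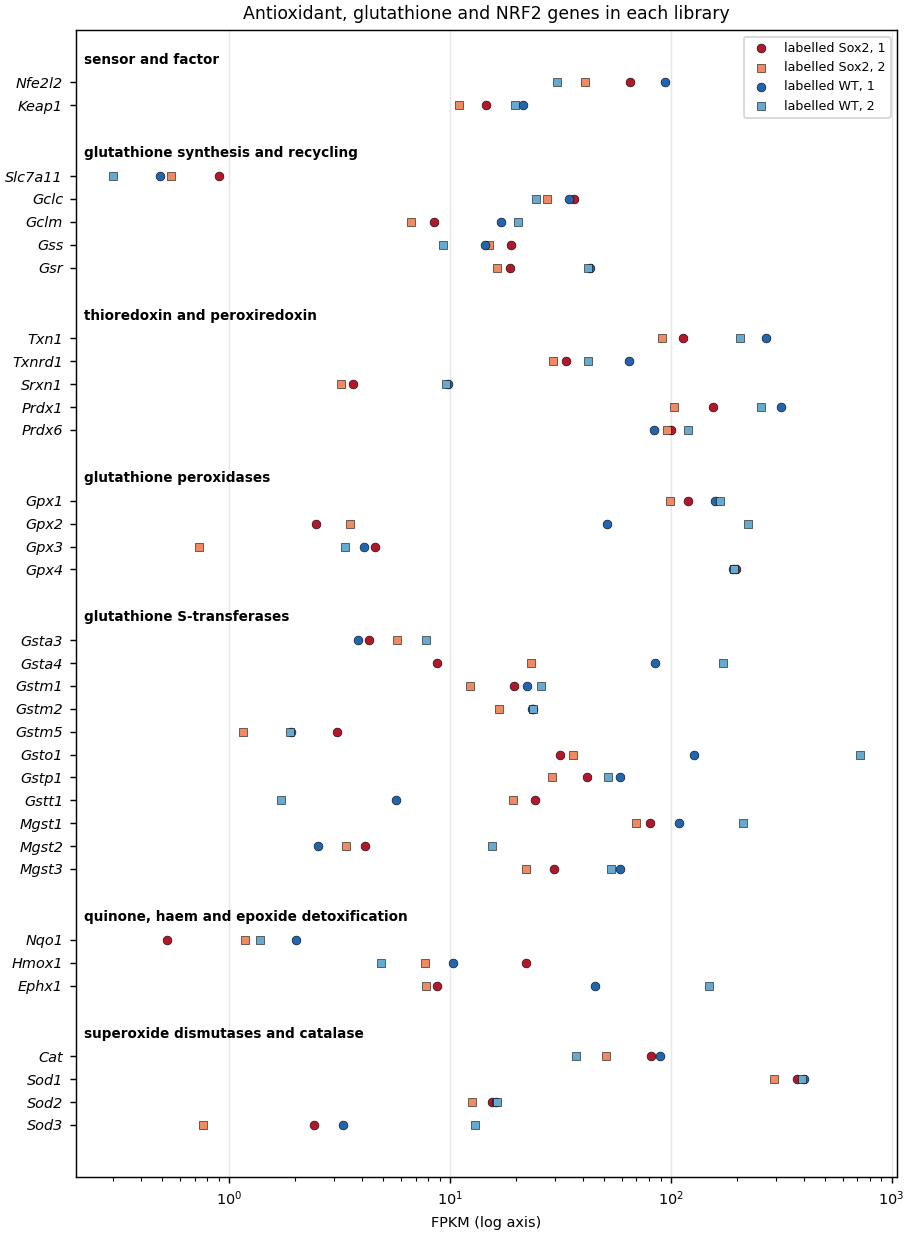
FPKM of each of the 34 genes in each library on a log axis, grouped by role; circles are replicate 1 and squares replicate 2, in red and orange for libraries labelled Sox2 and in dark and light blue for libraries labelled WT. Gpx2, Gsta4, Gsto1 and Ephx1 show the red and orange symbols well left of the blue ones, Gstt1 shows the opposite order, and the 4 symbols of Gpx4 lie on each other at 192 to 198 FPKM.

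Neither the factor nor its sensor passed the test, and neither had an unadjusted p under 0.05. Nfe2l2 stood at 65.6 and 41.0 FPKM in the libraries labelled Sox2, against 93.9 and 30.7 FPKM in those labelled WT. The libraries of a label differed more than the labels did, and the groups overlapped (log2 difference -0.05, 95% interval -1.09 to 0.99). Keap1 stood at 14.7 and 11.02 FPKM against 21.4 and 19.6 FPKM. Its groups did not overlap, with a log2 difference of -0.65 (95% interval -1.39 to 0.09) that missed the threshold (limma adjusted p = 0.225).

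In glutathione synthesis and recycling, Gclm and Gsr were lower, while Gclc and Gss did not pass. Gclm stood at 8.46 and 6.68 FPKM in the libraries labelled Sox2, against 17.2 and 20.5 FPKM in those labelled WT (log2 difference -1.21, SE 0.35, limma adjusted p = 0.0457). Both libraries labelled Sox2 were below both of the others. Gclc, the catalytic partner of Gclm in the same enzyme, stood at 36.6 and 27.4 FPKM against 34.7 and 24.6 FPKM, with overlapping groups (log2 difference 0.11, 95% interval -0.63 to 0.85). Gsr, the reductase that returns oxidised glutathione to its reduced form, stood at 18.7 and 16.4 FPKM against 43.2 and 42.3 FPKM (log2 difference -1.24, SE 0.31, limma adjusted p = 0.0278). Within each label the values of Gsr were close, and the groups were well apart. Gss, which completes the glutathione molecule, stood at 19.0 and 15.1 FPKM against 14.4 and 9.36 FPKM, with a log2 difference of 0.50 that did not pass (95% interval -0.29 to 1.30). Slc7a11, the transporter that brings in cystine for this synthesis, was near the floor in all libraries (0.903 and 0.545 FPKM against 0.487 and 0.299 FPKM) and was not tested.

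The thioredoxin branch had 3 lower genes of 5 (60%), against 8.11% of all tested genes, with a median log2 difference of -1.16. Txn1, the small protein that reduces disulphides, stood at 114 and 91.7 FPKM in the libraries labelled Sox2, against 272 and 206 FPKM in those labelled WT (log2 difference -1.20, SE 0.32, limma adjusted p = 0.0320). Prdx1, which breaks down hydrogen peroxide with electrons from thioredoxin, stood at 156 and 104 FPKM against 316 and 257 FPKM (log2 difference -1.16, SE 0.33, limma adjusted p = 0.0438). Srxn1 stood at 3.64 and 3.22 FPKM against 9.79 and 9.66 FPKM (log2 difference -1.28, SE 0.37, limma adjusted p = 0.0470). The groups did not overlap in 4 of the 5 genes (80%), against 58.1% of all tested genes. In each of the 3 lower genes both libraries labelled Sox2 lay below both libraries labelled WT. Of these, Srxn1 and Prdx1 hold the NF-E2 motif in the promoter windows shown above. Prdx1 overlaps the entry AV051173, and Txnrd1 overlaps Eid3, so fragments of such pairs may have been shared between them. Txnrd1, the selenium enzyme that recharges thioredoxin, had values of 33.7 and 29.5 FPKM against 64.9 and 42.4 FPKM, without overlap, but it did not pass (log2 difference -0.72, 95% interval -1.45 to 0.01). Prdx6, a peroxiredoxin with a further role in surfactant lipid turnover, overlapped between the labels at 101 and 96.7 FPKM against 84.1 and 120 FPKM (log2 difference -0.03, 95% interval -0.72 to 0.67).

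The calls of the smaller differences depended on the library and on the scale. Gclm, Gsr, Txn1, Srxn1, Prdx1 and Mgst3 each lost its call when labelled Sox2 replicate 1 was left out (limma adjusted p from 0.0579 to 0.170) or replicate 2 (0.224 to 0.346). Their log2 differences then ran from -1.44 to -1.30 without replicate 1 and from -1.21 to -0.87 without replicate 2, against -1.28 to -1.10 with all libraries. Without labelled WT replicate 1, Gsr alone of these 6 passed, and the others had adjusted p from 0.0544 to 0.127. Without labelled WT replicate 2, Gclm (0.172) and Srxn1 (0.136) did not pass, and Srxn1 did not pass under a filter at 5 FPKM either (0.0603). After rescaling none of the 6 passed, with log2 differences from -0.98 to -0.75 and limma adjusted p from 0.0508 to 0.0811.

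**Figure D2:**
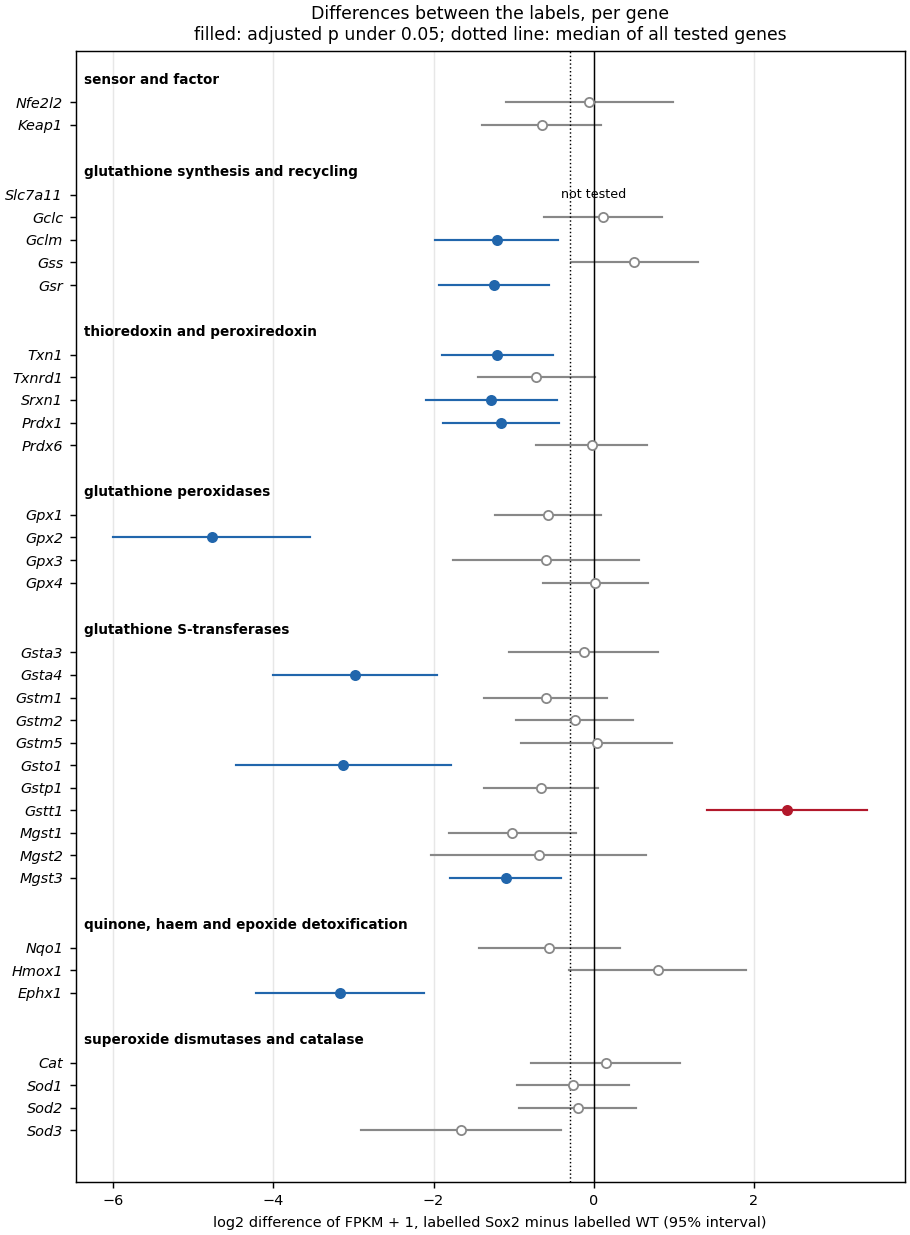
Log2 difference of FPKM + 1 per gene, libraries labelled Sox2 minus libraries labelled WT, with its 95% interval; filled symbols passed the threshold and the dotted line marks the median of all tested genes, -0.29. The 4 largest lower genes lie at -2.99 or below, 6 further lower genes lie between -1.28 and -1.10, and Gstt1 stands alone on the right at 2.41.

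Of the glutathione peroxidases, selenium enzymes that reduce peroxides with glutathione, Gpx2 differed and the other 3 did not pass. Gpx2, known as the form of gut epithelium, lies on chromosome 12 (76792335 to 76795554, mm10) and stood at 2.49 and 3.53 FPKM in the libraries labelled Sox2, against 51.4 and 224 FPKM in those labelled WT. Both libraries labelled WT were far above the others, and they differed from each other 4.35-fold. The mean was 3.01 ± 0.737 FPKM (SD, n = 2) against 138 ± 122 FPKM (SD, n = 2), a 45.7-fold difference that was 74.3-fold without labelled WT replicate 1 and 17.1-fold without labelled WT replicate 2. The log2 difference was -4.77 (SE 0.56, limma adjusted p = 0.000754), and the call held with any 1 library left out and after rescaling (adjusted p = 0.0188). Gpx4, which repairs lipid peroxides in membranes, was level at 198 and 193 FPKM against 192 and 193 FPKM (log2 difference 0.02, 95% interval -0.63 to 0.68), with an entry that overlaps Bc1. Gpx1, the common cytosolic form, had values of 120 and 98.9 FPKM against 159 and 167 FPKM (log2 difference -0.57, 95% interval -1.24 to 0.09). Gpx3, the secreted form, overlapped between the labels, and its value in labelled Sox2 replicate 2 was 0.729 FPKM, below the 3.34 to 4.59 FPKM of the other libraries.

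Glutathione S-transferases join glutathione to reactive compounds, and of 11 members 3 were lower, 1 was higher and 7 did not pass. Gsto1, of the omega class, lies on chromosome 19 (47854989 to 47864788, mm10) and stood at 31.6 and 36.2 FPKM in the libraries labelled Sox2, against 128 and 718 FPKM in those labelled WT. It supplied 1.89% and 2.67% of the summed FPKM of the 34 genes in the libraries labelled Sox2, against 5.22% and 21.97% in those labelled WT. On the log2 scale it differed by -3.13 (SE 0.61, limma adjusted p = 0.00911), and its 12.5-fold difference was 21.2-fold without labelled WT replicate 1 and 3.77-fold without labelled WT replicate 2. Gsto1 lost its call when labelled Sox2 replicate 2 was left out (limma adjusted p = 0.0686), after rescaling (0.0828) and under a robust variance model (0.217).

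Gsta4, of the alpha class, known for the removal of lipid aldehydes such as hydroxynonenal, lies on chromosome 9 (78191966 to 78209349, mm10) and stood at 8.75 and 23.4 FPKM in the libraries labelled Sox2, against 85.3 and 172 FPKM in those labelled WT. All values of the label Sox2 were below those of the label WT, differing by -2.99 on the log2 scale (SE 0.47, limma adjusted p = 0.00321). The difference was 8.00-fold, 14.7-fold without labelled Sox2 replicate 2 and 5.31-fold without labelled WT replicate 2, and the call held with any 1 library left out. After rescaling its limma adjusted p was 0.04999, just under the threshold. Gsta3, of the same class, overlapped at 4.32 and 5.75 FPKM against 3.86 and 7.81 FPKM.

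Gstt1, of the theta class, was the only one of the 34 genes that was higher. It lies on chromosome 10 (75783813 to 75798584, mm10) and stood at 24.4 and 19.4 FPKM in the libraries labelled Sox2, against 5.71 and 1.73 FPKM in those labelled WT. The groups were apart and differed by 2.41 on the log2 scale (SE 0.45, limma adjusted p = 0.00786). The mean was 5.90-fold higher, or 12.7-fold without labelled WT replicate 1 and 3.84-fold without labelled WT replicate 2. It lost its call when labelled Sox2 replicate 1 (limma adjusted p = 0.0754) was left out, or replicate 2 (0.0867), and passed after rescaling (0.0115).

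The mu-class genes Gstm5, Gstm2 and Gstm1 lie side by side within 122 kb of chromosome 3 and did not pass. Gstm1 stood at 19.6 and 12.3 FPKM in the libraries labelled Sox2, against 22.5 and 25.9 FPKM in those labelled WT, and Gstm2 at 23.8 and 16.6 FPKM against 23.6 and 23.8 FPKM. Gstm5 was low, at 3.10 and 1.16 FPKM against 1.90 and 1.89 FPKM. Members of this family resemble each other, so the split of fragments among them is uncertain. The same holds for Gstp1, of the pi class, and its near copy Gstp2. Gstp1 stood at 41.7 and 28.9 FPKM against 58.8 and 51.9 FPKM (log2 difference -0.66, 95% interval -1.36 to 0.05), and Gstp2 had a log2 difference of -0.66. Among Gstm1, Gstm2, Gstm5 and Gstp1, the promoter window of Gstp1 held the NF-E2 motif and that of Gstm5 the core. The entry of Gstm5 also overlaps 4933431E20Rik.

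Among the membrane-bound transferases, Mgst3 was lower, at 29.6 and 22.2 FPKM in the libraries labelled Sox2, against 58.7 and 53.6 FPKM in those labelled WT (log2 difference -1.10, SE 0.32, limma adjusted p = 0.0455). Mgst1, the most abundant of the 3 here, had values of 80.5 and 69.4 FPKM against 110 and 212 FPKM. Its groups did not overlap, and it passed only without labelled WT replicate 1 (limma adjusted p = 0.00408, against 0.0874 with all libraries). Mgst2 had 4.12 and 3.40 FPKM against 2.53 and 15.6 FPKM, so its groups overlapped through the spread of the label WT, and it too passed only without labelled WT replicate 1 (0.0121, against 0.492).

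**Figure D3:**
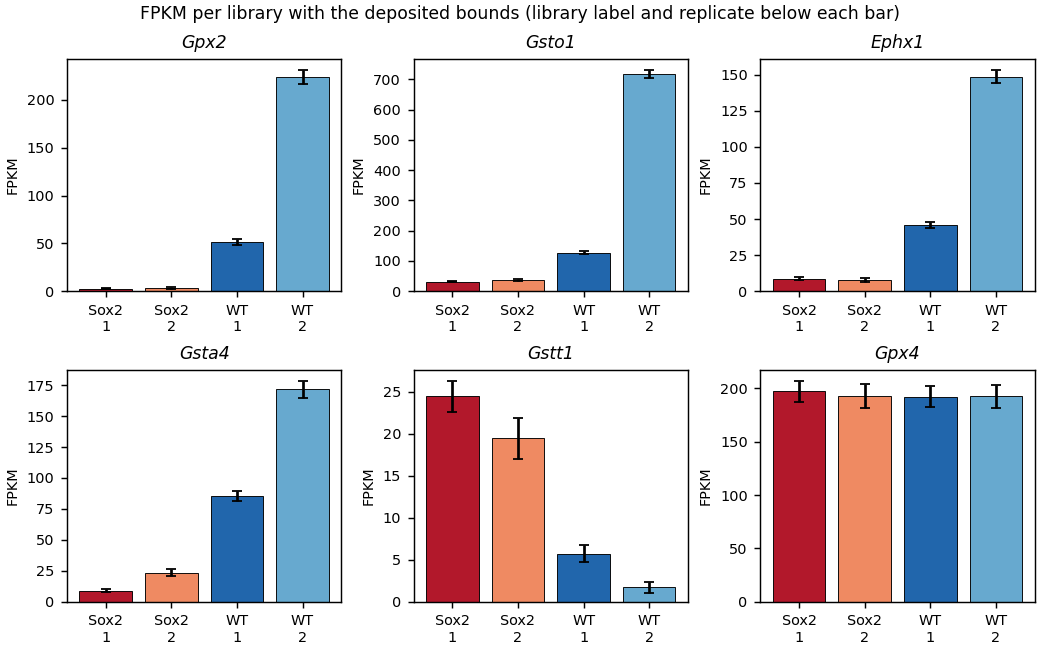
FPKM in each library for the 5 genes with the largest called differences and for Gpx4, with error bars that show the distance to the deposited upper bound on both sides. Gpx2, Gsto1, Ephx1 and Gsta4 are tallest in labelled WT replicate 2 and lower in both libraries labelled Sox2, Gstt1 is tallest in labelled Sox2 replicate 1, and Gpx4 is level across the 4 libraries.

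Of the genes for quinones, haem and epoxides, Ephx1 was lower and the others did not pass. Ephx1, the microsomal epoxide hydrolase, lies on chromosome 1 (180989556 to 181017495, mm10) and stood at 8.77 and 7.83 FPKM in the libraries labelled Sox2, against 45.6 and 149 FPKM in those labelled WT. The groups were far apart, and the label WT was again the more spread (log2 difference -3.17, SE 0.48, limma adjusted p = 0.00266). The difference was 11.7-fold, 17.9-fold without labelled WT replicate 1 and 5.49-fold without labelled WT replicate 2, and the call held with any 1 library left out and after rescaling (adjusted p = 0.0346). Nqo1, a quinone reductase often used as a readout of NRF2, was barely expressed, with 0.523 and 1.18 FPKM against 2.01 and 1.38 FPKM. The groups did not overlap, but the log2 difference of -0.55 did not pass. Hmox1, which breaks down haem, varied within each label (22.2 and 7.73 FPKM against 10.4 and 4.89 FPKM) and overlapped (log2 difference 0.80, 95% interval -0.31 to 1.91). Beside Hmox1, the summed level of 6 macrophage and leukocyte markers came to 1147 and 843 FPKM in the libraries labelled Sox2, against 257 and 64.6 FPKM in those labelled WT. Of 5 tested markers, 2 were higher, Lyz2 and Csf1r. Ptprc, Cd68 and Marco did not pass, with log2 differences of 0.67, 0.02 and -0.07, and Itgam was not tested. Lyz2 alone was 1102 and 812 FPKM against 241 and 58.3 FPKM, and it is made by AT2 cells too. The part of these cells in the level of Hmox1 was not tested.

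Superoxide dismutases turn superoxide into hydrogen peroxide and catalase removes the peroxide, and 0 of these 4 genes passed in limma, with Sod3 alone at an unadjusted p under 0.05. Sod1, the cytosolic form, was the most abundant of the 34 genes by mean FPKM, at 375 and 292 FPKM in the libraries labelled Sox2, against 400 and 393 FPKM in those labelled WT (log2 difference -0.26, 95% interval -0.96 to 0.44). Sod2, the mitochondrial form, stood at 15.5 and 12.6 FPKM against 16.2 and 16.4 FPKM. Cat stood at 81.7 and 51.1 FPKM against 89.5 and 37.5 FPKM, so that, as for Nfe2l2, the spread within a label exceeded the difference. Sod3, the secreted form, had 2.43 and 0.765 FPKM against 3.27 and 13.0 FPKM (log2 difference -1.65, 95% interval -2.90 to -0.40, limma adjusted p = 0.0804) and passed only without labelled WT replicate 1 (0.000236).

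The libraries labelled WT were the more spread in these genes. The median ratio between the higher and the lower library of a label was 1.33 in the label Sox2 and 1.42 in the label WT, and this ratio was over 2 in 6 of the 34 genes in the label Sox2 and in 11 in the label WT. The summed FPKM of the 34 genes came to 1674 and 1352 in the libraries labelled Sox2, against 2445 and 3268 in those labelled WT. As a share of the summed FPKM of all genes this was 0.428% and 0.462% in the libraries labelled Sox2, against 0.499% and 0.453% in those labelled WT. The sums of all genes include small RNA genes, at 14.0% and 5.76% under the label Sox2 and 19.3% and 50.9% under the label WT. The share of the 34 genes is thus lowered most in labelled WT replicate 2. Of the basal, club and ciliated markers, only Trp63, Krt5 and Cyp2f2 were highest in labelled WT replicate 2. Several others were lowest there, among them Scgb3a2, Tppp3 and Sec14l3. Trp63, a transcription factor of basal cells, had 0.0605 and 0.0293 FPKM in the libraries labelled Sox2, against 2.38 and 14.4 FPKM in those labelled WT, and so was highest in the same library as Gpx2, Gsto1, Ephx1 and Gsta4, the library with 50.9% of its summed FPKM in small RNA genes. Without that library the differences of these 4 genes still passed, at the folds given above. Of 5 basal markers, Trp63 was lower and Krt15 did not pass, while Krt5, Krt14 and Ngfr were under 1 FPKM in every library, and the sum of the list was 2.14 and 1.70 FPKM against 3.94 and 16.6 FPKM. Of 5 club cell markers Scgb3a2 was higher and 4 did not pass. Among these, Cyp2f2, an oxidase of club cells, had 94.3 and 107 FPKM against 72.6 and 376 FPKM, while Scgb1a1 had 3263 and 5594 FPKM against 1796 and 1730 FPKM. Of 4 tested ciliated markers, Tppp3 and Sec14l3 were higher and 2 did not pass. Sec14l3 had 249 and 251 FPKM against 54.2 and 12.1 FPKM. The part of airway cells in the levels of the 4 genes was not tested.

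Further genes of the same systems, 131 in 8 lists, were set beside the 34. Of the 105 that were tested, 9 were lower and 8 higher after rescaling, where 5.70% of all genes were lower and 8.01% higher. As deposited, 12 of the 105 were lower in the libraries labelled Sox2 (11.4%), 3 were higher (2.86%) and 90 did not pass. Of all tested genes as deposited, 8.11% were lower and 4.20% higher. The median log2 difference of the 105 as deposited was -0.22, close to the -0.29 of all tested genes. Of the 15, Nfe2l3, Aldh3a1, Adh7 and Cryz held their call with any 1 library left out. Without labelled Sox2 replicate 2 these 4 were all that held, and the 11 others, all named below, had limma adjusted p from 0.0804 to 0.305.

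The list for NADPH supply and the pentose phosphate pathway had 5 lower genes of 10 (50%), against 8.11% of all tested genes. Its median log2 difference was -1.19. NADPH is the electron source for glutathione and thioredoxin reductases. Tkt, a transketolase of the pentose phosphate pathway, stood at 31.1 and 20.8 FPKM in the libraries labelled Sox2, against 115 and 83.5 FPKM in those labelled WT (log2 difference -1.90, limma adjusted p = 0.00585). The isocitrate dehydrogenases Idh2 (-1.65) and Idh1 (-1.36) and the pentose phosphate enzymes Pgls (-1.24) and Pgd (-1.20) were lower as well. G6pdx, which opens that pathway, differed by -1.18 on the log2 scale and missed the threshold (limma adjusted p = 0.0635). These 6 were among 7 of the 10 genes (70%) in which the groups did not overlap, against 58.1% of all tested genes. In all 7 both libraries labelled Sox2 lay below both libraries labelled WT. Pgd, Idh1 and Pgls lost their calls when labelled Sox2 replicate 1 was left out (limma adjusted p = 0.0884, 0.0504 and 0.0786), and Pgls without labelled WT replicate 2 (0.102). After rescaling, Pgd (0.0651) and Pgls (0.108) did not pass.

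Of 19 tested enzymes for carbonyls and quinones, 3 were lower and 1 was higher. Aldh3a1, an aldehyde dehydrogenase, stood at 0.0845 and 0.487 FPKM in the libraries labelled Sox2, against 20.2 and 101 FPKM in those labelled WT (log2 difference -5.19, limma adjusted p = 0.000796). Adh7, an alcohol and retinol dehydrogenase, had 0.0471 and 0.0341 FPKM against 15.8 and 61.5 FPKM (log2 difference -4.96, limma adjusted p = 0.000651). Cryz, a quinone reductase, had 2.28 and 1.22 FPKM against 27.9 and 55.9 FPKM (log2 difference -3.91, limma adjusted p = 0.000544). All 3 were highest in labelled WT replicate 2, like Gpx2. Cbr2, a lung carbonyl reductase, ran the other way, at 518 and 574 FPKM against 204 and 146 FPKM (log2 difference 1.65, limma adjusted p = 0.00913), and missed the threshold without labelled Sox2 replicate 2 (0.0804).

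Among 13 regulators and partners of NRF2, Nfe2l3, a relative of NRF2, was lower at 1.16 and 2.93 FPKM in the libraries labelled Sox2, against 23.0 and 13.1 FPKM in those labelled WT (log2 difference -2.66, limma adjusted p = 0.00428). Mafk, one of the small MAF partners, was higher at 52.5 and 50.5 FPKM against 23.7 and 18.5 FPKM (log2 difference 1.26, limma adjusted p = 0.0268), and 11 did not pass. Mafk lost its call also when labelled Sox2 replicate 1 (limma adjusted p = 0.126) was left out, or labelled WT replicate 2 (0.0652). Of 20 further thioredoxin, glutaredoxin and peroxiredoxin genes, the mitochondrial thioredoxin Txn2 (log2 difference -1.60) and the mitochondrial glutaredoxin Glrx5 (-1.17) were lower and none was higher. Glrx5 was lost without labelled Sox2 replicate 1 (0.117), without labelled WT replicate 2 (0.0613) and after rescaling (0.0997). Of 14 tested genes for glutathione transport and turnover, the aminopeptidase Lap3 was lower (-1.50) and the aminopeptidase Anpep higher (2.01). Lap3 missed the threshold without labelled WT replicate 1 (0.0609) and Anpep without labelled Sox2 replicate 1 (0.103).

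None of 10 other tested glutathione S-transferases and peroxidases passed, with Gstk1 at a log2 difference of 1.25 (limma adjusted p = 0.0791) and Gpx8 at 0.29. None of 9 tested genes of haem and iron handling passed either, and the ferritin chains Ftl1 and Fth1 had log2 differences of 0.02 and 0.34. The 10 tested genes of oxidant-producing oxidases did not pass, with Cyba, a membrane subunit of these oxidases, at 70.3 and 58.9 FPKM in the libraries labelled Sox2, against 77.2 and 81.7 FPKM in those labelled WT, and Cybb, its catalytic partner in phagocytes, at 5.18 and 1.16 FPKM against 2.96 and 0.742 FPKM. At an unadjusted p under 0.05, the first of these lists had 1 higher and 1 lower gene, the second 0 and 1, and the third 1 and 0.

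**Figure D4:**
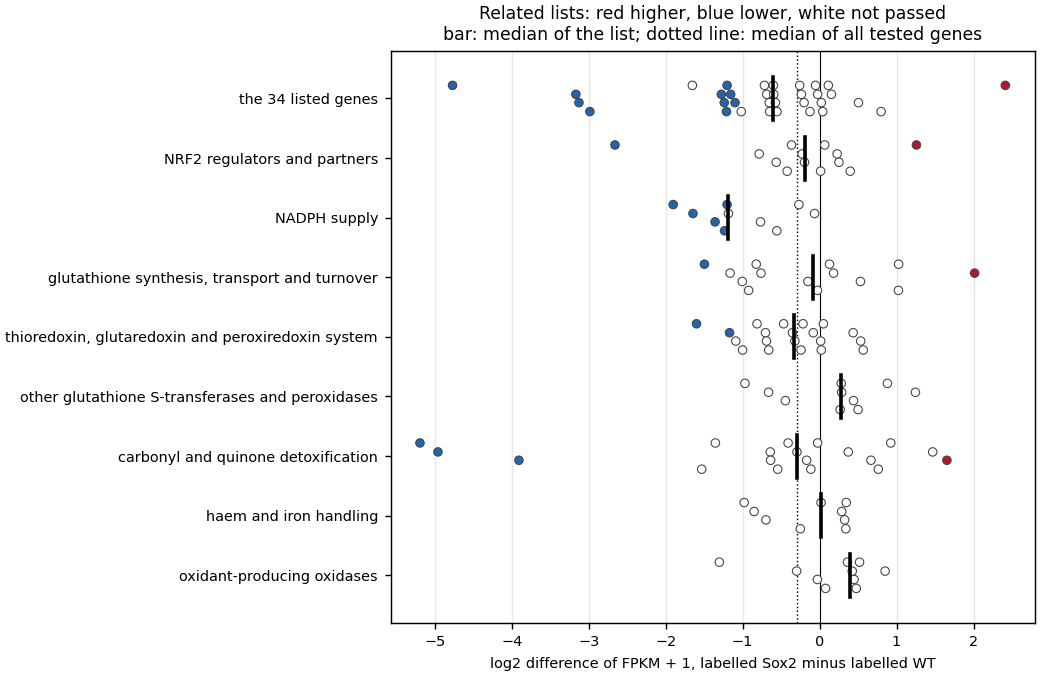
Log2 difference of each tested gene, libraries labelled Sox2 minus libraries labelled WT, for the 34 genes and the 8 related lists; red genes were higher, blue genes lower and white genes did not pass, with a bar at each list's median. The bar of the NADPH list lies at -1.19, that of the 34 genes at -0.60, and those of the other 7 lists between -0.34 and 0.39.

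Across the settings tried, the 11 called genes among the 34 split into Gpx2, Ephx1 and Gsta4, whose calls were lost with no filter on low values but with no other setting, and 8 genes whose calls were lost under 2 or more settings. All 11 kept their direction under each setting.

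**Figure D5:**
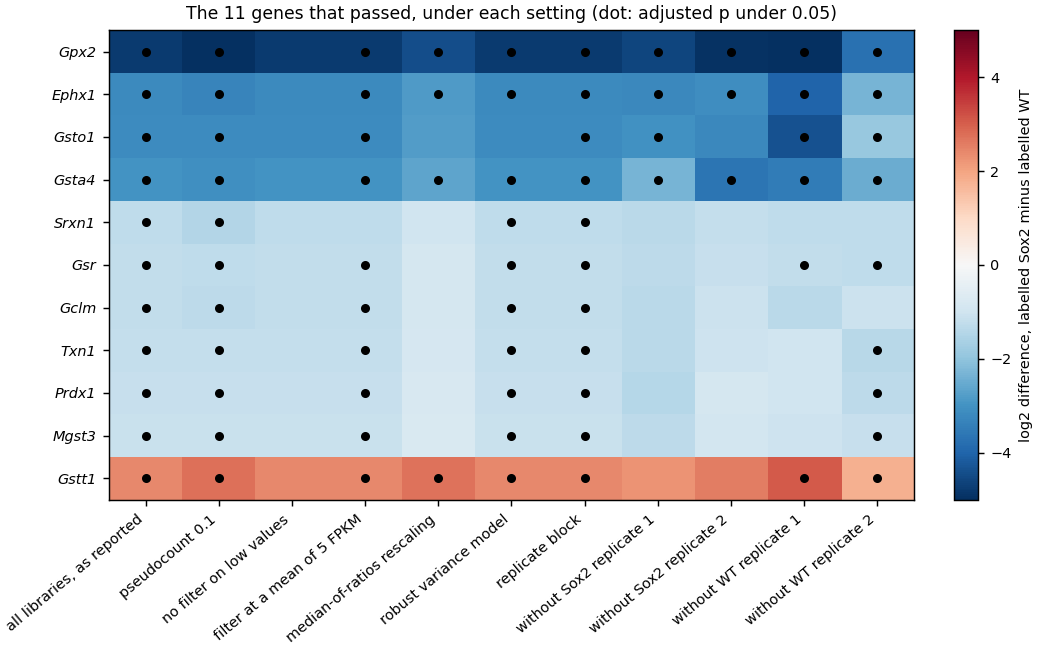
Log2 difference of the 11 called genes, libraries labelled Sox2 minus libraries labelled WT, as colour under each processing setting, with a dot where the adjusted p was under 0.05. Gpx2, Ephx1 and Gsta4 carry a dot in every column except the one with no filter on low values, where none of the 11 genes has one.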

How the data were processed

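Poly(A) RNA from 4 libraries was sequenced on an Illumina HiSeq2000, per the labels' protocols. The submitters' processing notes name TopHat2, Bowtie2, Cufflinks, Cuffdiff and the build mm10. Versions, the annotation, the strand setting and any masking were not given in the sources used here. The authors deposited FPKM per gene with lower and upper bounds, 1 table of 24490 entries per library, and a combined table of label means that was not used. FPKM gives no counts and the sequencing depth is unknown. Fragment numbers implied by the distance from the value to its upper bound were within 0.1 of a whole number for 50.3% to 54.1% of low genes, so counts were not rebuilt. In the median gene, the upper bound lay 7.93% and 12.4% above the value under the label Sox2, and 7.79% and 9.89% under the label WT.

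Entries of 267 symbols at several positions were summed and 1 gene marked as failed was left out, which gave 23990 genes. Values were tested as log2(FPKM + 1) with limma 3.58.1 in R 4.3.3, with a variance trend, over the 12040 genes that averaged 1 FPKM or more, and p-values were adjusted by Benjamini and Hochberg over all of these at a threshold of 0.05. A log2 difference on this scale understates the change of low genes. Folds are ratios of mean FPKM. The fit was tested on simulated data with the same spread in every gene and no difference of scale between libraries. That test does not cover the unequal spread and scale of these libraries. All 34 genes are named. From each further list up to 4 genes that passed are named by the size of their difference; where none passed, its 2 most abundant genes are, and marker genes where a result touches them. Pgd, G6pdx, Gstp2 and Xist were named after their values were seen. The genes, lists and motifs were chosen with earlier results of these data known. The labels' replicate numbers do not pair the samples by animal or batch, so no block was used. Alternatives were a pseudocount of 0.1, no filter, a filter at 5 FPKM, median-of-ratios rescaling, a robust variance model, a replicate block and leaving out each library. Promoters were read from RefSeq windows, with none at hand for Gclc, Gsr, Prdx6, Gsta4, Hmox1 and Sod3.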

Additional observations from a re-analysis of the deposited data

How the results depend on the processing

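As reported, 10 of the 34 genes were lower under the label Sox2 and 1 was higher, and of all genes 976 were lower and 506 higher. Without a filter on low values, 18390 genes were tested, limma called 0 of the 34 genes in either direction, 0 of the related lists, and 3 lower and 0 higher genes of all, while 11 of the 34 were lower and 1 higher at an unadjusted p under 0.05, as were 2618 and 1251 of all genes. After median-of-ratios rescaling 3 of the 34 genes and 686 of all were lower, and 964 of all and 8 genes of the related lists were higher, so that the higher share of all calls was 58.4%, against 34.1% as deposited. The robust variance model gave 5 higher genes in the related lists. Leaving out 1 library gave 3 to 8 lower and 0 to 1 higher of the 34 genes, 115 to 1312 lower and 119 to 837 higher of all genes, and 4 to 15 lower and 0 to 6 higher in the related lists. The cause was not tested.

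With the replicate block, 10 of the 34 genes were lower and 2 higher, the second being Hmox1 (limma adjusted p = 0.0441); 2730 of all genes were lower and 1142 higher, and 25 and 10 in the related lists. Libraries with the same number had correlated deviations from the mean of their label (r = 0.234). With 2 libraries per label both pairs give the same r by construction, so the second pair adds nothing. These libraries share only a number.

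Rescaling turned the sign of genes that had not passed, to log2 differences of 0.30 in Nfe2l2, 0.33 in Prdx6, 0.17 in Gsta3, 0.10 in Gstm2, 0.094 in Sod1 and 0.13 in Sod2. Leaving out 1 library gave ranges across 0 for Nfe2l2 (-0.84 to 0.74), Gclc (-0.13 to 0.35), Prdx6 (-0.28 to 0.23), Gpx3 (-1.44 to 0.25), Gsta3 (-0.55 to 0.30), Gstm2 (-0.48 to 0.0096), Gstm5 (-0.42 to 0.50), Mgst2 (-1.80 to 0.43) and Cat (-0.46 to 0.77). The 11 called genes kept their sign under all of these settings.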
